A study of Homo sapiens with 12 samples.

Results

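ALDH1A3 and CYP26A1 are 2 genes that act on the same small molecule, all-trans retinoic acid, from opposite ends. They were chosen by name, and both were present in each of the 3 tables that the authors deposited, out of 5308 genes found in at least 1 table. RNA had been sequenced from KKU-213A, an established human line of bile duct cancer with papillary and non-papillary features, in 12 libraries of 3 per group. Lactic acidosis cells were kept in low-glucose medium with L-lactate and the buffer HEPES, 25 mM of each, at pH 6.7, which they reached stepwise over passages. Lactosis cells received 25 mM L-lactate at pH 7.4. Acidosis cells received 25 mM HEPES at pH 6.5. Control cells stayed in the low-glucose medium without these additions, and their pH is not given. Treated cells spent at least 5 passages in their medium, so a treatment cannot be told apart from time in it, and acid cannot be told apart from HEPES. The groups share 1 cell line, serum and antibiotics, and the labels do not say that the 3 libraries of a medium were grown apart, so the spread between them may be technical.

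Retinol is oxidised to retinaldehyde by retinol dehydrogenases, and retinaldehyde dehydrogenases such as ALDH1A3 oxidise that, irreversibly, to retinoic acid. Retinoic acid binds nuclear receptors (RARA, RARB and RARG, paired with RXR partners) on response elements in DNA, and enzymes of the CYP26 family hydroxylate it and so end its action. CYP26A1 is itself a classic target gene of retinoic acid, as are RARB and DHRS3, so its level in many cell types follows the supply of the molecule. High ALDH1A3 is a known marker of stem-like cells in several carcinomas.

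In GRCh38 (GENCODE release 29) ALDH1A3, ENSG00000184254.16, lies on the plus strand of chromosome 15 from 100877714 to 100916626, and its longest coding transcript has 13 exons. CYP26A1, ENSG00000095596.11, lies on the plus strand of chromosome 10 from 93073475 to 93077890, with 7 exons in each of its full-length coding transcripts. A response element of retinoic acid is classically a direct repeat of 2 hexamers (6 letters each) with 5 bases between them. Searched were the consensus hexamer AGGTCA, its variant form AGTTCA, the further form GGGTCA and lastly the form GGTTCA, in any pair and on both strands, in RefSeq windows (GRCh38.p14) from 250 bases before to 50 bases after each annotated start. Windows existed for 61 of the 80 retinoid genes on the lists used here. Such a repeat was found for CYP26A1 and RARB, in 2 of 93 windows, against 31 of 35116 windows of all genes (0.0883%). Both genes were on the lists as classic targets of retinoic acid, so these shares describe the windows and do not test for enrichment. The sites are shown, with 5 bases on either side and hexamers in capitals, because they sit beside genes that changed in these cells.
CYP26A1, minus strand, chr10:93073798-93073824: caattAGTTCAcccaaAGTTCAtcttt
RARB, plus strand, chr3:25428205-25428231: ggtagGGTTCAccgaaAGTTCActcgc
The CYP26A1 repeat ends 73 bases before the shorter transcript's RefSeq start and lies within exon 1 of the longer transcript. That of RARB ends 36 bases before a start of the gene. Neither the ALDH1A3 window nor the windows of the other retinoid genes held the repeat, and no retinoid window held it with 2 bases between the hexamers. These are matches of letters in these windows only, and no binding was measured.

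ALDH1A3 was higher and CYP26A1 lower in every treated library than in any control library. The tables hold only genes that the authors' test called against these same control libraries. How many other listed genes separate in this way was not counted, so the separation alone does not set ALDH1A3 and CYP26A1 apart. The same limit applies to the other separations from control described below. Values are the deposited length-scaled expression values, whose exact unit is not stated, and read depth is unknown. ALDH1A3 stood at 806.64, 855.35 and 800.65 in the 3 lactic acidosis libraries. It stood at 441.01, 395.73 and 477.35 in the lactosis libraries and at 413.99, 365.08 and 355.16 in the acidosis libraries. In control libraries it stood at 88.28, 177.74 and 249.82. Lactic acidosis libraries thus formed the top level without overlap, lactosis and acidosis libraries overlapped with each other in the middle, and control libraries were lowest. The overlap in the middle depends on the scale of the libraries. With values weighted to the authors' fold changes, lactosis ran from 350 to 374 and acidosis from 314 to 319. In cultured cells sequenced in bulk, a change in the share of cells that express a gene and a change in the RNA per cell cannot be told apart.

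CYP26A1 ran the other way and at far lower levels. It was listed at 0, 0.31 and 0.05 in the lactic acidosis libraries and at 0.05, 0 and 0.23 in the lactosis libraries. Acidosis libraries had 0.22, 0.9 and 0.54, and control libraries 2.02, 2.33 and 1.99. The lactate-containing groups overlapped near 0, the acidosis libraries spread between those groups and control, and acidosis replicate 1 lay inside the range of the lactate groups. In the authors' deposited table the mean normalised count of CYP26A1 was 2.09 in lactic acidosis against 42.8 in control. The corresponding counts in the authors' deposited tables were 1.53 in lactosis against 38.2 in control, and 10.9 in acidosis against 42.0 in control. Few reads therefore stand behind its treated values, and no counting interval could be set without raw counts.

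**Figure D1:**
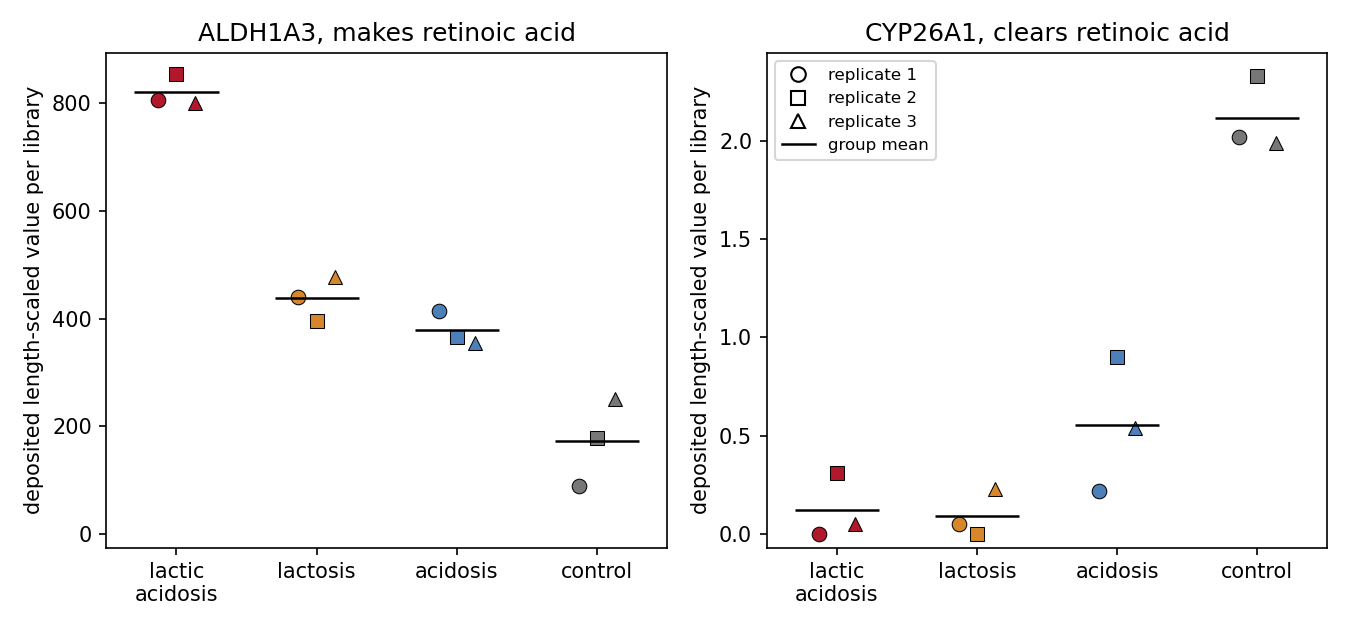
Deposited length-scaled values of ALDH1A3 (left) and CYP26A1 (right) on linear axes, 1 point per library with the replicate number as its shape and a bar at the group mean. ALDH1A3 is between 800.65 and 855.35 in lactic acidosis and at most 249.82 in control, while CYP26A1 is at most 0.9 in treated libraries and at least 1.99 in control.

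Against control, the rise of ALDH1A3 was largest in lactic acidosis by the authors' estimates, and the fall of CYP26A1 was smallest in acidosis. The authors' deposited tables put ALDH1A3 at a log2 fold change over control of 2.20 for lactic acidosis cells, 1.37 for lactosis cells and 1.16 for acidosis cells. For CYP26A1 the authors' deposited tables give -4.35 for lactic acidosis cells, -4.63 for lactosis cells and -1.94 for acidosis cells. These 3 comparisons share the same control libraries and are not independent of each other. By size of the authors' fold change, ALDH1A3 was number 84 of 2521 genes listed higher in lactic acidosis, 104 of 1830 in lactosis and 41 of 1051 in acidosis, which are 58.9%, 59.3% and 61.1% of the genes of those tables. CYP26A1 was number 17 of 1758 genes listed lower in lactic acidosis, 10 of 1257 in lactosis and 31 of 670 in acidosis, which are 41.1%, 40.7% and 38.9% of the genes.

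The tables hold only genes that the authors' test called, at a posterior of equal expression below 0.05, so a further test on the same libraries describes the spread and is not separate evidence. Limma on log2(value + 1) over all 4279 genes of the lactic acidosis table gave ALDH1A3 a difference of 2.37 (SE 0.315, adjusted p = 4.30e-04) and CYP26A1 one of -1.48 (SE 0.147, adjusted p = 1.23e-04). Of those genes 86.1% passed at an adjusted p under 0.05, so that passing sets neither gene apart. In lactosis the differences were 1.46 (SE 0.317) for ALDH1A3 and -1.51 (SE 0.141) for CYP26A1, with adjusted p = 0.00495 and 1.28e-04 by limma, where 77.7% of 3087 genes passed. In acidosis they were 1.25 (SE 0.272) for ALDH1A3 and -1.02 (SE 0.181) for CYP26A1, with adjusted p = 0.00356 and 9.93e-04 by limma, where 60.0% of 1721 genes passed. Because 1 is added before the log, the differences of CYP26A1 understate its change.

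The control libraries differed 2.83-fold among themselves in ALDH1A3, against 1.07-fold among lactic acidosis, 1.21-fold among lactosis and 1.17-fold among acidosis libraries. Control replicate 1 was lowest. Weights fitted to the authors' fold changes were 0.792 and 0.772 for the other control libraries, relative to 1.0 for that library. After weighting, the control values of ALDH1A3 still ran from 88.3 to 193, a 2.19-fold spread. Without control replicate 1, limma put ALDH1A3 above control by 1.96 for lactic acidosis cells, 1.05 for lactosis cells and 0.84 for acidosis cells, and each still passed (adjusted p = 1.37e-06, 3.11e-04 and 0.00237).

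Muscle genes were checked because lactic acidosis replicate 2 and lactosis replicate 2 stood apart in them. Of 11 muscle markers, 9 were in the lactic acidosis table and 6 in the lactosis table, and none in the acidosis table. Their summed values were 18.7, 55.5 and 17.0 in lactic acidosis libraries against 38.4 to 57.8 in control. Without TNNT3, TNNI2 and MB, which were listed lower, the sums were 1.54, 32.9 and 0.95 in lactic acidosis libraries against 0.57 to 1.27 in control. In lactosis libraries the sums were 0.47, 55.0 and 0.53 against 0.64 to 1.48 in control. The muscle creatine kinase gene CKM, the desmin gene DES, the cardiac actin gene ACTC1 and the myosin light chain gene MYL3 were listed at 0 in lactosis replicate 1. Both genes kept their calls without these libraries. Without lactic acidosis replicate 2 the limma differences from control were 2.34 for ALDH1A3 and -1.60 for CYP26A1, and without lactosis replicate 2 they were 1.53 and -1.45. The bile duct identity of the line could be checked only for markers in the tables. Keratin gene KRT19 stood between 2596.21 and 3066.95 in lactic acidosis and between 2798.71 and 4419.27 in control, and 5 of 12 bile duct markers were in that table. The other listed markers moved in both directions. In the authors' deposited table for lactic acidosis, the log2 fold change was 1.45 for SOX9, a biliary transcription factor, and 0.24 for the anion exchanger gene SLC4A2. It was -2.66 for the mucin gene MUC1 and -2.04 for SPP1, the osteopontin gene, in the authors' deposited table. MUC1 stood between 0.33 and 0.35 in lactic acidosis libraries and between 1.41 and 2.3 in control libraries. The part of these marker changes in the results for ALDH1A3 and CYP26A1 was not tested.

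The treated groups were then compared with each other, which leaves the control libraries out of the fit. The genes fitted were those called against control for both treatments. The control libraries therefore still bear on the shares that passed and on the adjusted p. ALDH1A3 was higher in lactic acidosis than in lactosis by 0.91 on the log2(value + 1) scale (SE 0.0897, adjusted p = 7.85e-05, limma) and higher than in acidosis by 1.12 (SE 0.0820, adjusted p = 9.54e-06, limma). Among the genes in both tables, 20.4% of 2344 passed between lactic acidosis and lactosis, 15.7% of all tested higher in lactic acidosis and 4.78% lower. Between lactic acidosis and acidosis 48.8% of 1304 passed, 38.7% higher and 10.0% lower. Lactosis and acidosis differed in ALDH1A3 by 0.21 (95% interval -0.01 to 0.43, adjusted p = 0.159, limma), where 23.9% of 1173 genes passed, 16.4% higher and 7.50% lower. The call depends on the scale of the libraries. With the values weighted to the authors' fold changes the same difference was 0.19 and passed (adjusted p = 0.0366, limma).

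For CYP26A1 the groups with lactate did not separate. Lactic acidosis minus lactosis was 0.03 (95% interval -0.23 to 0.29, adjusted p = 0.873, limma). Lactic acidosis was lower than acidosis by a difference of -0.46 (SE 0.159, adjusted p = 0.0379, limma). That call was lost without lactic acidosis replicate 1 (-0.38, adjusted p = 0.126), lactic acidosis replicate 3 (-0.42, adjusted p = 0.107) or acidosis replicate 2 (-0.30, adjusted p = 0.145). Lactosis minus acidosis was -0.49 (95% interval -0.85 to -0.12, adjusted p = 0.0584, limma) and did not pass over the genes tested, though it did without acidosis replicate 1 (-0.65, adjusted p = 0.00759). It also passed with library weights (adjusted p = 0.0351, limma), with a variance trend (adjusted p = 0.0349, limma) and with the replicate number as a block (adjusted p = 0.0351, limma).

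A contrast over all 4 groups asked whether adding lactate moved each gene by the same amount with acid as without it. It takes the difference of lactic acidosis from acidosis and subtracts the difference of lactosis from control. The media are not a clean factorial, since the acid media differ in pH and HEPES was in the acid media only. Of the 1042 genes listed for every treatment, 35.9% passed, 20.0% with a positive and 15.9% with a negative contrast. These genes had each been called against the same control libraries that the contrast uses, so its adjusted p is not separate evidence. The median contrast over them was -0.158. For ALDH1A3 the contrast was -0.34 (95% interval -1.09 to 0.40, adjusted p = 0.424, limma), and without control replicate 1 it was 0.07. On the log scale the lactate step of ALDH1A3 was 1.12 with acid and 1.46 without it, and the interval includes no difference between these steps. For CYP26A1 the contrast was 1.06 (SE 0.220, adjusted p = 0.00320, limma). Its lactate step was -0.46 with acid and -1.51 without it. Its values near 0 in both lactate groups leave little room to fall further, and the part of this in the contrast was not tested. With a pseudocount of 0.1 the contrast was 2.01 and did not pass (adjusted p = 0.0535, limma).

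Within a library, the ratio of ALDH1A3 to CYP26A1 sets an enzyme that makes retinoic acid against 1 of the enzymes that clear it. Log2((ALDH1A3 + 1)/(CYP26A1 + 1)) was 9.66, 9.35 and 9.58 in lactic acidosis libraries and 8.72, 8.63 and 8.60 in lactosis libraries. It was 8.41, 7.59 and 7.85 in acidosis libraries and 4.89, 5.75 and 6.39 in control libraries. With 1 added, the 4 groups did not overlap, in the order lactic acidosis, lactosis, acidosis and control. The separation of the lactate groups from each other depends on the added 1. With nothing added, the linear ratio was 2759 and 16013 in lactic acidosis replicates 2 and 3, against 8820 and 2075 in lactosis replicates 1 and 3, and these ranges overlap. Lactic acidosis replicate 1 and lactosis replicate 2 have no such ratio, since CYP26A1 was listed at 0 there. That ratio was 1882, 406 and 658 in acidosis libraries and 43.7, 76.3 and 126 in control libraries, so every treated library that has one lay above control. Over control the mean ratio was higher by 3.85 for lactic acidosis cells, by 2.98 for lactosis cells and by 2.28 for acidosis cells (log2). Each of the 6 pairs of groups had p = 0.1 in an exact permutation test, two-sided, which is the smallest value that 3 against 3 libraries allow. For the pairs with control this outcome was fixed, since both genes already separated every treated library from control in opposite directions. The ratio restates the values of the same genes and is not separate evidence. With 0.1 added in place of 1, lactic acidosis against lactosis had p = 0.4 in the exact permutation test. With 5 added, lactosis against acidosis had p = 0.2 in that exact test. The ratio is one of RNA values and not of enzyme activity. It leaves out CYP26B1, which also clears retinoic acid and averaged 4.86 in lactic acidosis and 3.75 in lactosis against 1.72 in control. The ratio therefore does not set making against all clearing.

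**Figure D2:**
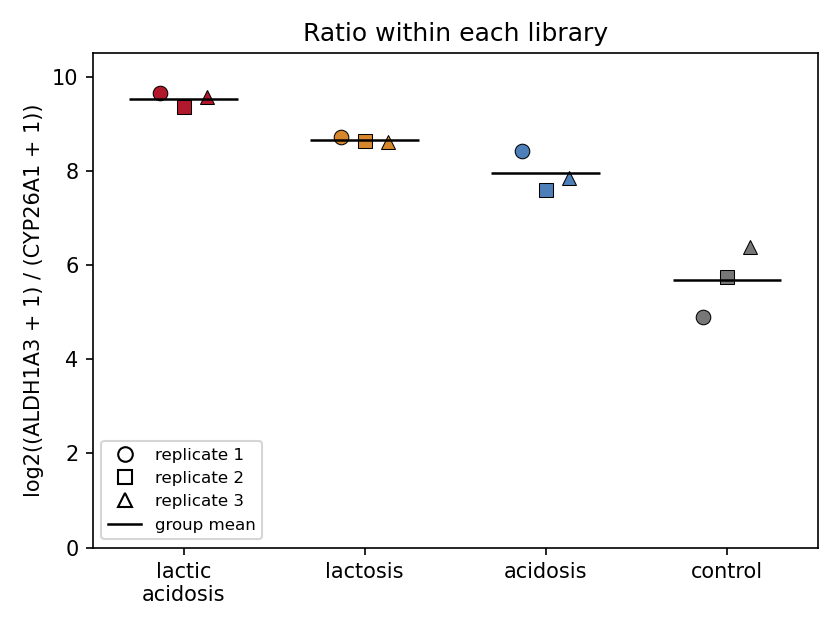
Log2 ratio of ALDH1A3 to CYP26A1, each with 1 added, within each of the 12 libraries, with a bar at the group mean and the replicate number as the shape. CYP26B1, which also clears retinoic acid, is not part of the ratio. Lactic acidosis averages 9.53, lactosis 8.65, acidosis 7.95 and control 5.67, and groups do not overlap with 1 added, though the lactate groups overlap with nothing added.

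The other genes of retinoid metabolism were read from 5 lists with 80 genes in all, ALDH1A3 and CYP26A1 included, of which 28 were in at least 1 table. Of the 78 others, 22 were in the lactic acidosis table, where 7 rose and 13 fell by limma and 2 did not pass. In lactosis 15 were listed, of which 4 rose, 7 fell and 4 did not pass, and in acidosis 5 were listed, of which 3 rose and 2 fell. Over all listed genes, 55.3% rose and 30.8% fell by limma in lactic acidosis, 46.5% and 31.2% in lactosis, and 35.9% and 24.2% in acidosis. The median authors' log2 fold change of the 24 listed genes of the lists, the 2 named ones included, was -0.60 in lactic acidosis against 0.37 over all listed genes. It was -0.35 against 0.35 in lactosis and, over 7 genes, 0.62 against 0.32 in acidosis. The lists were chosen with earlier results known, so these counts describe them only.

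Among genes whose enzymes use retinaldehyde, ALDH1A3 rose while DHRS3 fell. DHRS3 reduces retinaldehyde back to retinol, which draws on the same substrate that ALDH1A3 uses. It stood at 90.7, 90.93 and 90.31 in lactic acidosis libraries and at 52.03, 58.69 and 49.76 in lactosis libraries, against 281.61, 235.8 and 196.8 in control libraries. Every treated value lay below every control value, and lactosis lay below lactic acidosis. By limma DHRS3 differed from control by -1.37 (SE 0.154, adjusted p = 2.16e-04) in lactic acidosis and by -2.12 (SE 0.164, adjusted p = 6.89e-05) in lactosis. Lactic acidosis exceeded lactosis by 0.75 (SE 0.0850, adjusted p = 2.09e-04, limma). DHRS3 was not in the acidosis table, so its level in acidosis was not analysed here.

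The remaining listed genes of this step were lower in level. RDH12, a retinal reductase, stood at 0.25, 0.21 and 0.17 in lactic acidosis and at 0.18, 0.1 and 0 in lactosis, against 1.27, 0.66 and 0.63 in control, and fell in both by limma (adjusted p = 0.00868 and 0.00555). DHRS4, another retinal reductase, fell in lactic acidosis, at -0.90 (log2) in the authors' deposited table. CYP1B1, which can oxidise retinol, fell there with -1.45 in the authors' deposited table. RDH13, a reductase found in mitochondria, rose with 0.69 in lactic acidosis and 0.66 in lactosis in the authors' deposited tables. AOX1, an aldehyde oxidase, also rose at a low level, standing at 0.96, 1.46 and 1.38 in lactic acidosis and 0.57, 0.91 and 0.94 in lactosis, against 0.13, 0.35 and 0.49 in control. RDH14 had -0.41 in lactic acidosis in the authors' deposited table. It did not pass limma on unweighted values (adjusted p = 0.0570), though it did with library weights. ALDH1A1 and ALDH1A2, which catalyse the same step as ALDH1A3, and RDH10, the main retinol dehydrogenase of embryos, were in none of the tables.

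CYP26B1, which hydroxylates retinoic acid as CYP26A1 does, changed in the opposite direction to it in lactic acidosis and lactosis. It stood at 4.76, 4.65 and 5.17 in lactic acidosis libraries and at 3.3, 3.52 and 4.43 in lactosis libraries, against 1.51, 1.87 and 1.78 in control libraries. No lactic acidosis or lactosis library overlapped with control. CYP26B1 was not listed for acidosis, so its level there was not analysed here. Limma gave CYP26B1 a difference of 1.11 (SE 0.128, adjusted p = 2.26e-04) in lactic acidosis and 0.80 (SE 0.146, adjusted p = 0.00240) in lactosis. CYP26C1, the remaining member of the family, was in no table. Between lactic acidosis and lactosis CYP26B1 differed by 0.31 and did not pass (adjusted p = 0.0517, limma).

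Carriers and stores of retinoids moved in both directions. CRABP2, which carries retinoic acid to its receptors, stood at 41.31, 36.59 and 40.39 in lactic acidosis and at 23.26, 29.23 and 27.39 in acidosis, against 10.3, 15.61 and 17.19 in control. The groups did not overlap, and by limma lactic acidosis exceeded acidosis in CRABP2 by 0.55 (SE 0.0968, adjusted p = 0.00146). FABP5, a fatty acid carrier that also binds retinoic acid, rose in all 3 treatments, and the authors' deposited tables give log2 changes of 0.53 for lactic acidosis cells, 0.79 for lactosis cells and 0.62 for acidosis cells. LIPE, the hormone-sensitive lipase, which also hydrolyses retinyl esters, fell in all 3. LIPE stood at 0.84, 1.15 and 1.06 in lactic acidosis, at 2.21, 1.63 and 1.81 in lactosis and at 2.27, 2.31 and 2.4 in acidosis, against 3.78, 4.54 and 3.84 in control. STRA6, the receptor that takes up retinol from its plasma carrier, stood at 0.66, 0.93 and 0.72 in lactic acidosis against 6.18, 4.31 and 2.42 in control and fell by limma (adjusted p = 9.87e-04). PNPLA4, a lipase of retinyl esters, fell in lactic acidosis with -0.64 in the authors' deposited table. SCARB1, a receptor that takes up carotenoids, was listed in lactosis with 0.21 in the authors' deposited table and did not pass limma (adjusted p = 0.190).

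Receptors of retinoic acid were mostly listed lower where they were listed. RARB, the receptor gene whose window holds the repeat printed above, stood at 1.13, 1.33 and 1.56 in lactic acidosis and at 0.86, 0.58 and 1.14 in lactosis, against 1.5, 2.54 and 3.43 in control. Lactic acidosis overlapped with the lowest control library in RARB and lactosis did not. With library weights that overlap was absent, at 0.89 to 1.25 in lactic acidosis against 1.5 to 2.65 in control. By limma RARB differed from control by -0.54 (SE 0.205, adjusted p = 0.0333) in lactic acidosis and by -0.88 (SE 0.216, adjusted p = 0.00823) in lactosis. RARG fell in lactic acidosis with -0.57 in the authors' deposited table. RXRA was listed in both with -0.38 in lactic acidosis and -0.31 in lactosis in the authors' deposited tables. On unweighted values RXRA did not pass limma (adjusted p = 0.125 and 0.134). With library weights it did pass in lactic acidosis, as did every retinoid gene listed there. RXRB and the corepressor NCOR1 were listed in lactosis with -0.31 and -0.35 in the authors' deposited table. On unweighted values they did not pass limma either (adjusted p = 0.140 and 0.226).

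NRIP1, a corepressor that binds liganded receptors and is itself induced by retinoic acid, was listed in all 3 tables. It stood at 8.87, 10.14 and 8.21 in lactic acidosis, at 4.93, 3.86 and 5.96 in lactosis and at 14.86, 11.46 and 9.59 in acidosis, against 14.83, 21.45 and 19.28 in control. Acidosis replicate 1 just exceeded control replicate 1, and all other treated values lay below control. With library weights NRIP1 was at most 11.4 in acidosis and at least 14.8 in control. NRIP1 was lower in lactosis than in acidosis by a difference of -1.13 (SE 0.171, adjusted p = 0.00333, limma), and higher in lactic acidosis than in lactosis by 0.78 (SE 0.128, adjusted p = 0.00225, limma). PPARD, a fatty acid receptor that retinoic acid can also bind, rose in lactic acidosis with 0.58 and the coactivator gene NCOA3 fell with -0.57 in the authors' deposited table. NCOA3 had -0.66 in lactosis in the authors' deposited table and fell there too.

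Of 30 textbook targets of retinoic acid, 10 were listed in lactic acidosis, where all passed limma, 3 higher and 7 lower. In lactosis 6 were listed and passed, 1 higher and 5 lower, and in acidosis 4 were listed and passed, 2 higher and 2 lower. Passing was common among all listed genes, at 86.1% in lactic acidosis (55.3% higher and 30.8% lower), 77.7% in lactosis and 60.0% in acidosis. The genes that fell in lactic acidosis were CYP26A1, DHRS3, RARB, NRIP1, STRA6, BTG2 and MEIS1, with BTG2, an antiproliferative gene, at -1.23 and MEIS1, a homeobox gene, at -0.71 in the authors' deposited table. Those that rose were CYP26B1, CRABP2 and TGM2, a transglutaminase. TGM2 stood at 86.3, 98.61 and 90.16 in lactic acidosis and at 69.04, 65.26 and 55.24 in acidosis, against 16.24, 39.83 and 46.15 in control. The adhesion gene ICAM1 fell in lactosis with -0.50 in the authors' deposited table. The HOX genes on the list were in none of the tables. Retinoic acid itself was not measured.

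**Figure D3:**
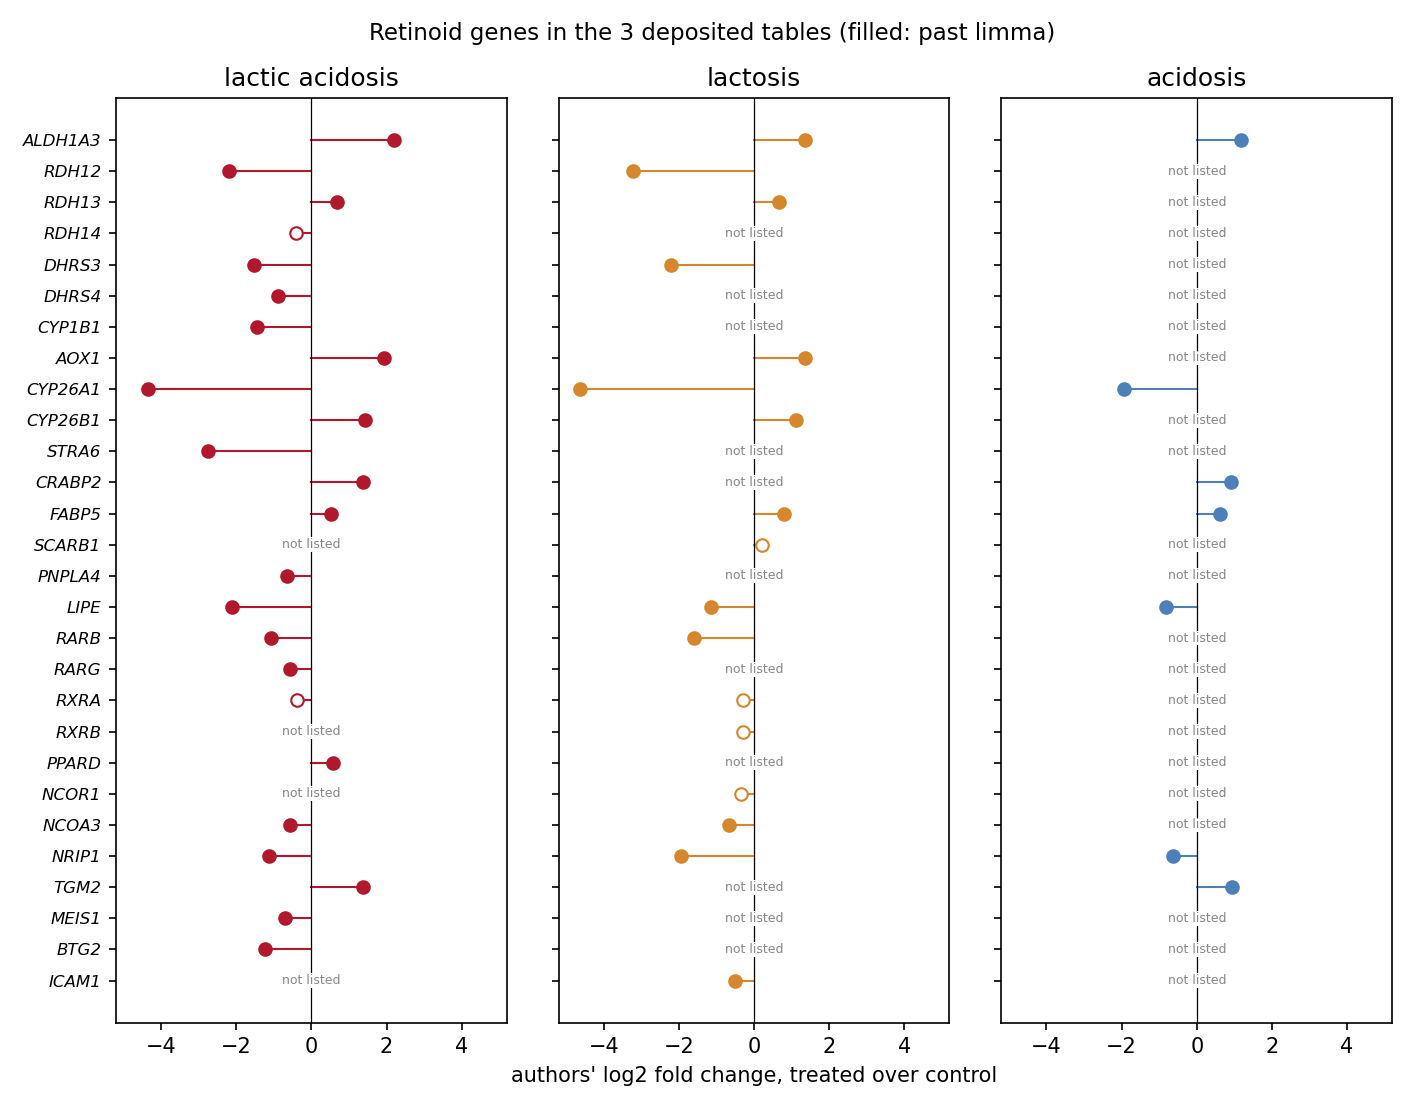
The authors' log2 fold change of each listed retinoid gene, treated over control, in the lactic acidosis, lactosis and acidosis tables, with filled points for genes past limma at an adjusted p under 0.05 and open points for the others. CYP26A1 lies at -4.35, -4.63 and -1.94 and ALDH1A3 at 2.20, 1.37 and 1.16 in these tables, and genes marked as not listed have no value.

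The genes whose profile over the 12 libraries was most like that of ALDH1A3 were NUP93 (Pearson r = 0.997), a nuclear pore gene, CDCA4 (0.993), DUSP6 (0.992), a phosphatase that acts on ERK, FOSL1 (0.990), an AP-1 subunit, and ATP1B1 (0.990), a subunit of the sodium pump. These r values were taken on log2(value + 1) over 1015 other genes in all 3 tables with a mean value of at least 1. The median r over those genes was 0.882, so that likeness of this kind was common among genes listed 3 times against the same control libraries. FOSL1 averaged 691 in lactic acidosis, 354 in lactosis, 244 in acidosis and 105 in control. The genes most like CYP26A1 were TMEM116 (r = 0.976), FAM49A (0.957), TMPRSS4 (0.955), a membrane protease gene, TSC22D3 (0.950), which encodes a glucocorticoid-induced leucine zipper protein, and IL1RN (0.947), the interleukin-1 receptor antagonist. The median r with CYP26A1 over 1016 other genes chosen in the same way was -0.760. TSC22D3 averaged 28.7 in lactic acidosis, 27.6 in lactosis, 33.8 in acidosis and 101 in control, and FAM49A averaged 0.703, 0.993, 1.75 and 5.16 in the same order.

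**Figure D4:**
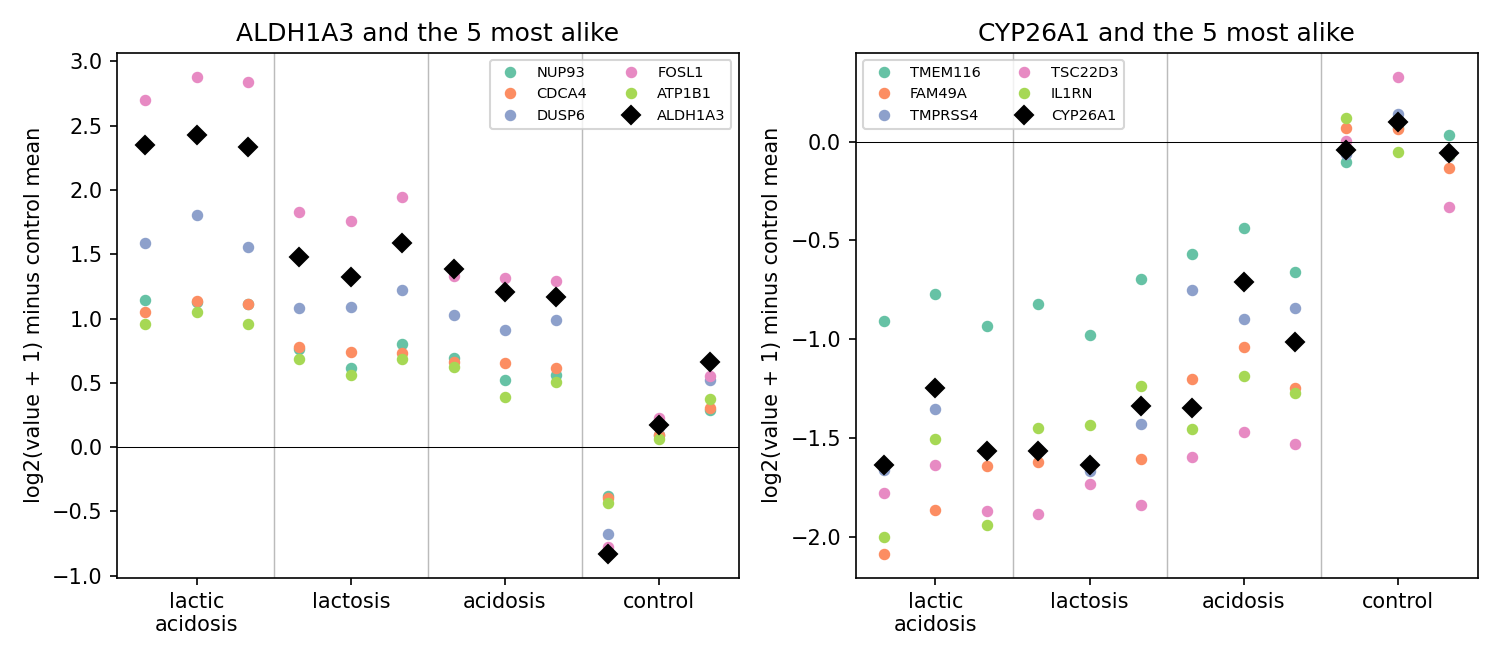
Log2(value + 1) minus the control mean for ALDH1A3 (left, black diamonds) and CYP26A1 (right, black diamonds) with the 5 genes most like each (coloured points), 3 libraries per group in the order of their replicate numbers. The ALDH1A3 set is highest in lactic acidosis and lowest in control replicate 1, and the CYP26A1 set is highest in control.

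Overlapping annotation limits what these values can be assigned to. Of the distinct windows of 75 bases, the read length, in coding transcripts of CYP26A1, 28.1% also occur in AL358613.3, a non-coding transcript on the same strand that overlaps its last exons. No window of ALDH1A3 occurs in another gene on the same strand, but 23.5% lie opposite a transcript of AC015712.2, an antisense gene, and the library kit is not stated to keep strand. Neither AL358613.3 nor AC015712.2 is in any of the tables.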

How the data were processed

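Poly(A) RNA of KKU-213A cells was sequenced as 75-base single reads, according to the labels. STAR and hg38 are named in the submitters' processing notes; the counting tool is not given in the sources used here. The authors deposited 1 table per treatment with EBSeq column names. Per-library values are a deposited signal, scaled by gene length, and group means are a deposited signal of counts over size factors. The deposited fold change is a ratio of control over treated and was inverted here, as log2. The deposited posterior probabilities of equal expression are all under 0.05. Control values were identical between tables (largest difference 0). No library totals are given, so depth is unknown.

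Limma 3.58.1 (R 4.3.3) was fitted to log2(value + 1) of all genes of a table, or of the genes in all tables compared, two-sided, with Benjamini-Hochberg adjustment over them, and was checked on simulated data. Library weights were fitted so that weighted group means gave the authors' fold changes, over genes with mean counts of at least 50. The named genes were ALDH1A3, CYP26A1, the listed members of 5 retinoid lists, and the 5 genes most like each. Members and lists were chosen with earlier results of these data known. Alternatives were pseudocounts of 0.1 and 5, a minimum mean value of 1, the replicate number as a block, library weights, a variance trend and leaving out each library. Same-numbered libraries were not treated as paired. Sequences are from RefSeq (GRCh38.p14). Tables and exact tests used scipy 1.17.1, pandas 2.3.3 and numpy 2.4.6 under Python 3.11.15, and plots used matplotlib 3.10.9.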

Additional observations from a re-analysis of the deposited data

Results flagged for a closer look

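Effects of the treatments differed from each other in 4 of the tests without a single treatment against control. Over all genes tested, each called against control for the treatments compared, 20.4% passed between lactic acidosis and lactosis and 48.8% between lactic acidosis and acidosis. Between lactosis and acidosis 23.9% passed, and in the contrast over 4 groups 35.9% did. ALDH1A3 was higher in lactic acidosis than in lactosis by 0.91 (adjusted p = 7.85e-05, limma) and than in acidosis by 1.12 (adjusted p = 9.54e-06, limma) on the log2(value + 1) scale, in all 3 lactic acidosis libraries. CYP26A1 differed between lactic acidosis and acidosis by -0.46 (adjusted p = 0.0379, limma), and 1 lactic acidosis library lay inside the acidosis range. That call was lost without lactic acidosis replicate 1, lactic acidosis replicate 3 or acidosis replicate 2 (adjusted p = 0.126, 0.107 and 0.145, limma) and with a pseudocount of 5 (adjusted p = 0.158, limma). The lactate step of CYP26A1 differed with and without acid by 1.06 (adjusted p = 0.00320, limma), and did not pass with a pseudocount of 0.1 (adjusted p = 0.0535, limma). The genes in that contrast had been called against the control libraries it uses, so its adjusted p is not separate evidence.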

How the results depend on the processing

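Of 176 refits of the 14 comparisons of ALDH1A3 and CYP26A1, 163 kept direction and side of the threshold, including all 72 against control. Weighting the libraries took the lactosis minus acidosis difference of ALDH1A3 to 0.19 and that of CYP26A1 to -0.44, both then past the threshold (adjusted p = 0.0366 and 0.0351, limma). That of CYP26A1 also passed with a variance trend (-0.49, adjusted p = 0.0349, limma). With a pseudocount of 5, CYP26A1 in lactic acidosis against acidosis was -0.12 and lost its call (adjusted p = 0.158, limma), and with 0.1 its lactate contrast over the 4 groups was 2.01 (adjusted p = 0.0535, limma). The minimum mean value of 1 removed CYP26A1 from every comparison without control and from that contrast.

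Leaving out 1 library at a time gave ranges, on the log2(value + 1) scale, of 1.96 to 2.70 for ALDH1A3 in lactic acidosis, 1.05 to 1.79 in lactosis and 0.84 to 1.58 in acidosis, each against control. For CYP26A1 they were -1.60 to -1.41, -1.60 to -1.45 and -1.18 to -0.86. The pseudocount moved CYP26A1 further, to -3.59 with 0.1 and -0.47 with 5 in lactic acidosis, -3.70 and -0.48 in lactosis, and -1.91 and -0.36 in acidosis, and each still passed. The ALDH1A3 contrast over 4 groups ran from -0.67 to 0.0712, positive only without control replicate 1. CYP26A1 in lactic acidosis against lactosis ran from -0.09 to 0.12, at -0.0878 without lactic acidosis replicate 2 and -0.03 without lactosis replicate 2. Against acidosis it ran from -0.62 to -0.30 in lactic acidosis and from -0.65 to -0.33 in lactosis. The mean ratio kept its direction in all 60 refits, but with a pseudocount of 0.1 lactic acidosis overlapped with lactosis, and with 5 lactosis overlapped with acidosis.

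Same-numbered libraries did not deviate together (correlations from -0.39 to 0.22 over 18 pairs), and 12 of 36 library comparisons were closest to their own number. With the replicate block, CYP26A1 in lactosis against acidosis was -0.49 and passed (adjusted p = 0.0351, limma), and no other call of ALDH1A3 or CYP26A1 changed. The block took the genes past limma in acidosis against control from 617 higher and 416 lower to 378 and 278.

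At a fold change of at least 2, the retinoid genes listed numbered 5 higher and 9 lower in lactic acidosis against 8 and 16 at the authors' threshold, 3 and 6 in lactosis against 6 and 11, and 1 and 1 in acidosis against 4 and 3. At that fold change the share of all listed genes that were lower was 60.1% for lactic acidosis, 61.2% for lactosis and 67.7% for acidosis, so the retinoid genes' 9 of 14 and 6 of 9 lower are near the background. In counts added after seeing the data, retinoid genes past limma with 1 library left out ranged from 7 to 8 higher and 11 to 16 lower in lactic acidosis, and from 4 to 5 higher and 6 to 10 lower in lactosis. In acidosis they ranged from 3 to 4 higher and 1 to 3 lower, with 1 lower without acidosis replicate 2 or control replicate 2. Counts over all listed genes moved too in these refits. They ranged from 1566 to 2458 higher and 973 to 1693 lower of 4279 in lactic acidosis. In lactosis they ranged from 756 to 1629 and 631 to 1228 of 3087, and in acidosis from 194 to 879 and 197 to 655 of 1721. With library weights, 8 retinoid genes were higher and 16 lower of 24 in lactic acidosis, against 2450 and 1724 over all 4279 genes. In lactosis the weighted counts were 6 and 10 of 17, against 1778 and 1228 over all 3087. In acidosis they were 4 and 3 of 7, against 1022 and 658 over all 1721. Without lactic acidosis replicate 2 the retinoid counts in lactic acidosis were 7 and 11, and without lactosis replicate 2 those in lactosis were 4 and 6. Relative to the authors' size factors, the deposited values shift lactic acidosis upward by 0.10 (log2). The cause of these moves was not tested.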
